A study of Mus musculus with 24 samples.

Results

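NRF2 antioxidant targets are described here by 10 genes that were taken by name from a table of 24532 genes. They are *Nfe2l2*, which encodes NRF2 itself, and *Nqo1*, *Gclc*, *Gclm*, *Hmox1*, *Srxn1*, *Txnrd1*, *G6pdx*, *Gsr* and *Prdx1*. RNA was sequenced from the liver, inguinal white adipose tissue (iWAT), gastrocnemius muscle (GM) and hypothalamus of Ctrl mice (*Crif1* flox/flox) and LKO mice (Alb-Cre with *Crif1* flox/flox), with 3 libraries per genotype and tissue and 24 in all. Both genotypes were C57BL/6 mice on a chow diet, labelled as 8 weeks old, and both carried the floxed *Crif1* alleles, so that the groups differed by the Cre transgene, which the albumin promoter drives in hepatocytes. The labels do not tie the 4 tissues to individual mice, and the p-values measure the spread between these libraries. CRIF1 is a mitochondrial protein needed for making the subunits of oxidative phosphorylation (OxPhos) that mitochondrial DNA encodes.

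NRF2 is a transcription factor that is held low by KEAP1, an adaptor that hands it to a ubiquitin ligase. Oxidants and other electrophiles modify KEAP1, NRF2 then accumulates, pairs with a small MAF protein and binds antioxidant response elements near its target genes. The targets make glutathione, reduce thioredoxin and oxidised glutathione, supply NADPH, and clear quinones, haem and peroxides, and several of them are abundant in hepatocytes. NRF2 is controlled to a large extent at the protein level, so the transcript of *Nfe2l2* is not a measure of its activity.

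The members were also compared by the antioxidant response element near their start sites. Promoter windows from RefSeq (GRCm38.p6, 250 bases before to 50 after a start site) were at hand for 7 members, 9 windows in all, and were searched on both strands for TGACNNNGC, the core of the element. Entries for *Gclc*, *Hmox1* and *Gsr* were not at hand. The core was in 6 windows, 1 in each of 6 members, and not in the *Nqo1* window. It was in 12.4% of all 32851 windows and for 14% of the 27025 genes that have one. A match is a description of the letters and not a binding site. The 6 matches are shown because the element is the one NRF2 is known to bind, each with 10 bases on either side, 5′ to 3′ on the strand of the gene, with the match in capitals. In the last 5 the core lies on the other strand and reads as its reverse complement. Distances are to the start site of the window. The *Txnrd1* match is in a window from 82858956 to 82859255, inside the gene, whose first base is 82833951. The *Txnrd1* window at that first base (82833701 to 82834000) has no match. The *G6pdx* window, 74428831 to 74429130, lies inside the gene, whose coordinates begin at 74429161 on the minus strand.
*Nfe2l2*, chr2:75704885-75704913, minus strand, 240 bases before the start site: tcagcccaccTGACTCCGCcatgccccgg
*Gclm*, chr3:122245413-122245441, plus strand, 134 bases before: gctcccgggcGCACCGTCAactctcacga
*Srxn1*, chr2:152105542-152105570, plus strand, 28 bases after: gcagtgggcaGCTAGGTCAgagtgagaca
*Txnrd1*, chr10:82859104-82859132, plus strand, 92 bases before: ctggatttttGCTTTGTCAttctgacacg
*G6pdx*, chrX:74428919-74428947, minus strand, 57 bases before: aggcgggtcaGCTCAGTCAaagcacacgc
*Prdx1*, chr4:116685456-116685484, plus strand, 133 bases before: cagggaaagcGCTGAGTCAtcccccgtag
The *Prdx1* match also contains TGANTCA, a motif of AP-1 factors, while the other 5 matches do not. Only the matched letters were searched for this motif, and the *Srxn1* window holds TGAGTCA outside its match.

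Levels are given as FPKM, which divides the fragments of a gene by transcript length and by library size. Depth, worked out from how FPKM relate to coverage, was 4.45 to 8.09 gigabases per library. *Crif1*, listed as *Gadd45gip1*, was at 14.6, 12.5 and 13.6 FPKM in the Ctrl livers and at 5.4, 2.0 and 2.51 FPKM in the LKO livers, and LKO 1 thus had the highest level left. In the other tissues its Ctrl and LKO groups overlapped. Hepatocyte, adipocyte, skeletal muscle and neuronal markers were each abundant in the tissue they belong to. Libraries of the same group and tissue correlated at 0.9825 or more on log2(FPKM + 1) across genes, which are not independent replicates. The median log2 fold change over all 10956 genes tested in liver was 0.33, against -0.01, -0.03 and -0.01 in iWAT, GM and hypothalamus. Median-ratio scaling, which sets the libraries of a tissue to a common median ratio over genes, brought it to -0.04 in liver. The 10 most abundant genes took 23.0% to 24.5% of the summed FPKM in Ctrl livers and 17.5% to 22.5% in LKO livers. Liver differences of the members are therefore given on the deposited scale and after that scaling.

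In the livers of LKO mice, all 10 members were higher than in any Ctrl liver, and 8 of them passed the test. *Hmox1* and *Srxn1* rose most, by more than 2 on the log2 scale, followed by *Nqo1*. *Nfe2l2*, *G6pdx*, *Txnrd1*, *Gclc* and *Gsr* rose less, while *Gclm* and *Prdx1* did not pass. The test was limma on log2(FPKM + 1) with Benjamini-Hochberg adjustment over all genes tested in the tissue, and a gene was called at an adjusted p under 0.05. These counts stand against a high background, since 38.3% of tested liver genes were called higher and 5.49% lower in LKO mice, and 53% had every LKO library above every Ctrl library. After median-ratio scaling 4 members (*Nqo1*, *Hmox1*, *Srxn1* and *G6pdx*) were called higher, where 15.2% of genes were, and the split over all genes went from 4193 higher and 601 lower to 1663 higher and 1966 lower. With a fold change of at least 1.5 asked for as well, 6 members were called on the deposited scale (23.9% of genes). The median of the members was 0.72 beside 0.33 for all tested genes, and 0.34 beside -0.04 after scaling.

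**Figure D1:**
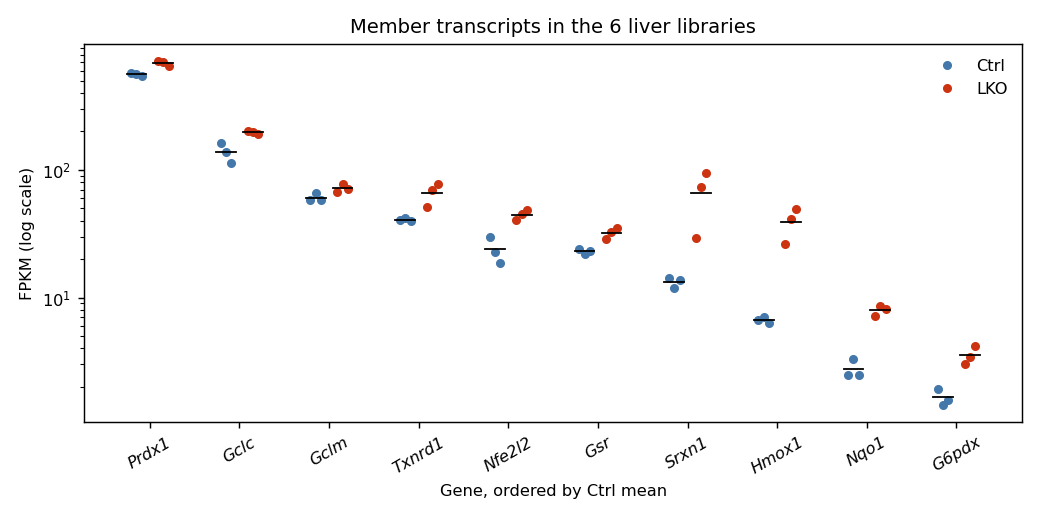
FPKM on a log axis of the 10 members in the 6 liver libraries, each point being 1 library (Ctrl blue, LKO red) and each bar the mean of 3. For every gene the 3 LKO points lie above the 3 Ctrl points, with the widest gaps for *Hmox1* (26.4 to 49.7 against 6.38 to 7.01) and *Srxn1* (29.5 to 94.6 against 11.9 to 14.1).

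The transcript of the regulator itself, *Nfe2l2* (NCBI Gene 18024, mm10 chromosome 2 from 75675513 to 75704663, minus strand), was at 29.9, 22.9 and 18.7 FPKM in Ctrl livers and at 40.6, 45.3 and 48.3 FPKM in LKO livers. The groups did not overlap, and the Ctrl livers were spread more widely than the LKO livers. Its log2 fold change was 0.90 (standard error 0.17, 95% interval 0.50 to 1.31, adjusted p = 0.00829 from limma). After median-ratio scaling it was 0.47 and no longer passed (adjusted p = 0.0595, which was the highest over all alternatives, the lowest being 5.04e-05).

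*Nqo1*, *Hmox1* and *Srxn1*, which are widely used as readouts of NRF2, moved most in liver. *Nqo1* (NCBI Gene 18104, chromosome 8 from 107388225 to 107403205) encodes a quinone reductase that spends NADPH to turn quinones into hydroquinones. It was low in Ctrl livers, at 2.47, 3.31 and 2.5 FPKM, and reached 7.14, 8.67 and 8.13 FPKM in LKO livers. The log2 fold change was 1.26 (standard error 0.14, adjusted p = 0.00149 from limma), which placed it above 95.5% of tested liver genes. It was 0.90 after scaling (adjusted p = 0.00425), and over all alternatives the adjusted p stayed at 0.0202 or below.

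*Hmox1* (NCBI Gene 15368, chromosome 8 from 75093618 to 75100593) encodes haem oxygenase, which opens the haem ring to give biliverdin, iron and carbon monoxide. Its level was 6.65, 7.01 and 6.38 FPKM in Ctrl livers and 26.4, 41.4 and 49.7 FPKM in LKO livers, a 5.87-fold difference of the means. The Ctrl livers were close to each other, and the LKO livers were spread with LKO 1 lowest. The log2 fold change was 2.34 (standard error 0.22, 95% interval 1.83 to 2.85, adjusted p = 0.000926 from limma), higher than that of 99.1% of genes. After scaling it was 1.93 (adjusted p = 0.000755), and the adjusted p reached 0.0223 at most over the alternatives. *Hmox1* rises in macrophages as well as in hepatocytes, and macrophage and Kupffer cell markers moved with it here. On the deposited scale all 8 markers of that list were higher in every LKO liver than in any Ctrl liver. So were 53% of tested liver genes. The summed level of the 8 markers, not scaled, was 113 to 117 FPKM in Ctrl and 248 to 407 FPKM in LKO livers. Divided by that sum, *Hmox1* was 0.0581, 0.0619 and 0.0544 in Ctrl livers and 0.106, 0.141 and 0.122 in LKO livers, again with no overlap (2.12-fold). With 3 libraries against 3 the exact two-sided permutation p is 0.1, the smallest the design allows. This ratio was chosen after the values were seen, and the part of these cells in the *Hmox1* level was not tested further.

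*Srxn1* (NCBI Gene 76650, chromosome 2 from 152105524 to 152111376) encodes sulfiredoxin, which returns overoxidised peroxiredoxins to their working form. It was at 14.1, 11.9 and 13.7 FPKM in Ctrl livers and at 29.5, 73.3 and 94.6 FPKM in LKO livers. LKO 1 lay well under LKO 2 and LKO 3, so that its SD in LKO livers (33.2 FPKM, n = 3) was wide beside its mean of 65.8 FPKM. The log2 fold change was 2.08 (standard error 0.38, adjusted p = 0.00737 from limma) and 1.65 after scaling (adjusted p = 0.0111). With ordinary in place of moderated variances it did not pass (adjusted p = 0.0579, the highest over the alternatives, from 8.05e-06).

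*Txnrd1* and *Prdx1*, the members of the thioredoxin arm beside *Srxn1*, had smaller log2 fold changes in liver than *Srxn1*, a difference not tested. *Txnrd1* (NCBI Gene 50493, chromosome 10 from 82833951 to 82897724), the cytosolic thioredoxin reductase, was at 40.7, 41.8 and 39.9 FPKM in Ctrl livers and at 51.3, 69.6 and 77.7 FPKM in LKO livers. Its log2 fold change was 0.66 (standard error 0.16, adjusted p = 0.0166 from limma), and 0.23 after scaling (adjusted p = 0.0954, the highest over the alternatives, from 0.000234). The call was also lost without Ctrl 1 (adjusted p = 0.0558), Ctrl 2 (0.0586), Ctrl 3 (0.0651) or LKO 2 (0.0663). *Prdx1* (NCBI Gene 18477, chromosome 4 from 116685599 to 116700000), a peroxiredoxin that removes hydrogen peroxide, had the highest level of the members, at 576, 569 and 540 FPKM in Ctrl and 711, 695 and 656 FPKM in LKO livers. On the log2 scale it was higher by 0.29 (standard error 0.11, adjusted p = 0.0644 from limma), which was under the median of all tested genes, and it was -0.15 after scaling (adjusted p = 0.486). Over the alternatives its adjusted p ran from 0.0119 to 0.486. *Srxn1* and *Prdx1*, whose products act on each other, can be compared within a library without any scaling. *Srxn1* per *Prdx1* was 0.0245, 0.0209 and 0.0254 in Ctrl livers and 0.0415, 0.105 and 0.144 in LKO livers, so that the groups did not overlap (4.11-fold, exact permutation p = 0.1). In iWAT, GM and hypothalamus the groups overlapped for this ratio, which was chosen after the values were seen.

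Of the glutathione members, *Gclc* rose and *Gclm* did not pass, and neither was called after scaling. *Gclc* (NCBI Gene 14629, chromosome 9 from 77754535 to 77794489) encodes the catalytic subunit of glutamate-cysteine ligase, the rate-limiting enzyme of glutathione synthesis, and *Gclm* (NCBI Gene 14630, chromosome 3 from 122245557 to 122267215) its modifier subunit. *Gclc* was at 162, 139 and 112 FPKM in Ctrl livers and at 200, 200 and 191 FPKM in LKO livers. Its log2 fold change was 0.53 (standard error 0.14, adjusted p = 0.0254 from limma), and 0.09 after scaling (adjusted p = 0.707, the highest over the alternatives, from 0.00037). Without Ctrl 2, Ctrl 3 or LKO 2 it did not pass (adjusted p = 0.0791, 0.0894 and 0.0846). *Gclm* was at 58.3, 65.9 and 58.0 FPKM in Ctrl and 67.0, 78.0 and 71.2 FPKM in LKO livers, so that the highest Ctrl liver was close to the lowest LKO liver. Its log2 fold change was 0.24 (standard error 0.11, adjusted p = 0.0992 from limma) and -0.19 after scaling (adjusted p = 0.245). It passed with the deposited TPM (adjusted p = 0.0276) and without LKO 1 (0.0337), with a range of 0.0276 to 0.916 over all alternatives. The ratio of *Gclc* to *Gclm* was 1.94 to 2.77 in Ctrl livers and 2.56 to 2.99 in LKO livers, so that the groups overlapped.

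*Gsr* (NCBI Gene 14782, chromosome 8 from 33653238 to 33698162), the reductase that recycles oxidised glutathione, was at 24.2, 22.1 and 23.2 FPKM in Ctrl livers and at 29.0, 32.7 and 35.3 FPKM in LKO livers. The difference on the log2 scale was 0.46 (standard error 0.11, adjusted p = 0.0166 from limma), close to the shift of all genes, and 0.03 after scaling (adjusted p = 0.764, the highest over the alternatives, from 0.00039). It did not pass without Ctrl 2 (adjusted p = 0.0717), Ctrl 3 (0.0692) or LKO 2 (0.0686). *G6pdx* (NCBI Gene 14381, chromosome X from 74409486 to 74429161) encodes the first enzyme of the pentose phosphate pathway, which feeds NADPH to the reductases above. It was the lowest member in Ctrl livers, at 1.93, 1.44 and 1.59 FPKM, and was at 3.01, 3.44 and 4.2 FPKM in LKO livers. The log2 fold change was 0.77 (standard error 0.14, adjusted p = 0.00647 from limma) and 0.46 after scaling (adjusted p = 0.0129), and at such levels the added 1 FPKM makes it smaller than the 2.15-fold ratio of the means.

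**Figure D2:**
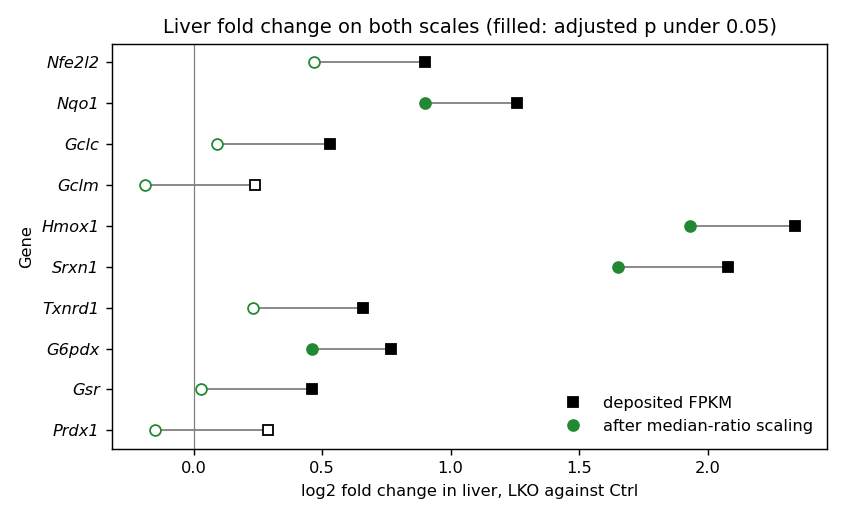
Log2 fold change in liver, LKO against Ctrl, of the 10 members on the deposited scale (squares) and after median-ratio scaling (circles), filled where the adjusted p is under 0.05. Scaling moved every member to the left, 4 circles stay filled, and those of *Gclm* (-0.19) and *Prdx1* (-0.15) lie under 0.

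The kit does not mark strand, so that reads in overlapping genes cannot be told apart. *G6pdx* overlaps *Ikbkg* on the other strand, and *Ikbkg* was also higher in LKO livers (10.7 to 12.3 FPKM in Ctrl, 15.3 to 20.8 in LKO, log2 fold change 0.65, adjusted p = 0.0111 from limma), though not called after scaling (0.24, adjusted p = 0.118). *Txnrd1* overlaps *Eid3* and *Prdx1* overlaps *AV051173*, neither of which reached the level to be tested. *Nqo1* overlaps the microRNA gene *Mir5098*. The deposited coverage of *Nfe2l2* and *Txnrd1*, set against their FPKM, was 0.154 to 0.158 and 0.196 to 0.197 of what other genes of the same library showed, while the other 8 members had the common ratio. This shift was about the same in every library, so it touches their level beside other genes more than their fold changes, and with coverage in place of FPKM 8 members were called in liver as well, where 38.3% of genes were called higher.

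Among the LKO livers, LKO 1 had the lowest deposited FPKM for 8 members and was the library with the most *Crif1* left. The median-ratio size factors of the LKO livers ran the same way, at 1.015, 1.185 and 1.340 for LKO 1 to LKO 3. After median-ratio scaling LKO 1 was the lowest for 3 members, *Hmox1* (26, 34.9 and 37.1 FPKM in LKO 1 to LKO 3), *Srxn1* (29, 61.8 and 70.6) and *Txnrd1* (50.5, 58.7 and 58), and the highest for 5, among them *Nfe2l2* (40, 38.2 and 36) and *Prdx1* (700, 586 and 489). With 3 libraries no relation to *Crif1* was tested. On the scaled values 6 members (*Nfe2l2*, *Nqo1*, *Hmox1*, *Srxn1*, *Txnrd1* and *G6pdx*) had every LKO liver above every Ctrl liver, beside 22.7% of tested genes, and *Gclm* had every LKO liver below, as 29.6% did. Without LKO 1, 9 members were called in liver on the deposited scale, where 60.7% of tested genes were called higher. Without Ctrl 2, Ctrl 3 or LKO 2 the number was 5, where the share over all genes was 15.2%, 14.9% and 15.4%.

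Other cells than hepatocytes can give signal in a whole liver, and fewer cells of a type and less RNA per cell cannot be told apart. Monocyte markers were higher in LKO livers for 6 of 6 genes (summed 52.1 to 59.7 FPKM in Ctrl, 142 to 193 in LKO), cholangiocyte markers for 5 of 5 (30.7 to 31.8 and 41.6 to 88.9), neutrophil markers for 4 of 6 (1.43 to 2.08 and 9.18 to 11.3) and endothelial markers for 3 of 5 (30.5 to 33.5 and 41.6 to 68.4). These deposited-scale counts stand beside 53% of tested liver genes with every LKO library above every Ctrl library. In these lists, 2 monocyte and 3 neutrophil markers stayed under 1 FPKM in all liver libraries. Lymphocyte markers were higher for 0 of 5, all under 1 FPKM. For genes with every LKO library below, the share was counted only after scaling (29.6%). Of 7 hepatocyte markers, 0 were higher and 2 lower in every LKO liver than in any Ctrl liver, *Apoa1* (7110 to 7140 FPKM in Ctrl, 2940 to 6160 in LKO) and *Serpina1a* (3340 to 3360 and 1280 to 2730). Their sum, most of which is *Alb*, overlapped (56300 to 59000 FPKM in Ctrl, 42500 to 68100 in LKO), as did the erythroid ones (259 to 420 and 241 to 360). The part of these cells in the levels of the members was not tested.

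Further genes of the pathway were taken as lists, to be read beside the 38.3% of all liver genes called higher, or 15.2% after scaling. Called lower were 5.49% of genes, or 1966 of 10956 after scaling. The log2 fold changes of the list genes are given on the deposited scale, with the scaled value after it. Of 12 NRF2 regulators, 8 were called higher and 0 lower (3 and 0 after scaling). *Mafk* and *Maff*, small MAF partners of NRF2, rose by 1.76 and 1.70 on the log2 scale, and *Sqstm1*, whose product p62 takes KEAP1 to autophagy, rose by 1.70. These 3 were the ones still called after scaling (1.37, 1.37 and 1.25). *Keap1* had a log2 fold change of 0.21 (adjusted p = 0.114 from limma), was -0.21 after scaling (adjusted p = 0.125) and was not called on either scale. Of 16 other genes of glutathione synthesis and use, 13 were tested, 7 were higher and 1 lower (5 and 3 after scaling), with the largest changes for the peroxidase *Gpx3* (2.62, scaled 2.25), the amino acid transporter subunit *Slc3a2* (2.26, scaled 1.83) and *Gpx7* (1.49, scaled 1.20), which were called on both scales. In LKO livers the SD was 22.7 FPKM beside a mean of 26.2 FPKM for *Gpx3*, and 49.9 beside 84.8 FPKM for *Slc3a2*. *Gpx7* had a Ctrl mean of 0.989 FPKM. Without Ctrl 2, Ctrl 3 or LKO 2 the number of regulators called was 2, and that of these glutathione genes in either direction 4.

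Of 22 glutathione S-transferases, 21 were tested, 10 were higher and 4 lower (4 and 5 after scaling). *Gsta1* rose from a mean of 3.38 FPKM by 4.64 on the log2 scale (scaled 4.25), the largest change of any list gene on the deposited scale, and *Gstm3* rose by 3.07 (scaled 2.63) and *Gsta2* by 2.05 (scaled 1.62). *Gstp1* (means 2140 and 955 FPKM) fell by 1.18 (scaled -1.62) and *Gstp2* fell by 1.14 (scaled -1.58), both named after their values were seen. Without Ctrl 2, Ctrl 3 or LKO 2 the transferases called in either direction went from 14 to 7. *Gsta1* and *Gsta2* are close paralogs, so the split of reads between them is uncertain. The quinone, carbonyl and xenobiotic targets gave 10 higher and 0 lower of 16 tested (4 and 0 after scaling), led by the efflux pump *Abcc4* (2.94, scaled 2.67), the carbonyl reductase *Cbr3* (1.49, scaled 1.26) and *Ugdh* (1.45, scaled 1.01), which makes UDP-glucuronate. *Abcc4* and *Cbr3* had Ctrl means of 0.304 and 0.338 FPKM, so they reached the level to be tested only through the LKO livers. In LKO livers *Abcc4* had a mean of 11.6 FPKM with an SD of 9.73. Haem and iron genes gave 5 higher and 0 lower of 12 (4 and 2 after scaling), led by the haem transporter *Slc48a1* (1.46, scaled 1.03), the iron exporter *Slc40a1* (1.41, scaled 0.97) and the ferritin light chain *Ftl1* (1.24, scaled 0.80). Leaving out Ctrl 2, Ctrl 3 or LKO 2 gave 5 quinone, carbonyl and xenobiotic targets and 3 haem and iron genes. *Slc40a1* and *Slc48a1* are also abundant in macrophages, whose markers moved as given above.

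The other NADPH suppliers gave 6 higher and 2 lower of 12 (2 and 2 after scaling). *Idh2*, a mitochondrial isocitrate dehydrogenase, rose by 1.38 (scaled 0.94) and *Pgd*, which acts after *G6pdx* in the pentose phosphate pathway, by 1.14 (scaled 0.71). *Me1*, malic enzyme, was called at 0.84 on the deposited scale and not after scaling (0.41, adjusted p = 0.132 from limma). The 2 that fell, *Aldh1l1* by 0.72 (scaled -1.17) and *Mthfd1* by 0.51 (scaled -0.94), are enzymes of folate metabolism and were called on both scales. Thioredoxins and peroxiredoxins outside the members gave 5 higher and 0 lower of 13 (1 and 3 after scaling), with *Txnip*, a thioredoxin inhibitor (1.62, scaled 1.19), *Sesn2* (1.12) and *Prdx3* (0.75) as the largest. *Sesn2* and *Prdx3* were not called after scaling (0.76 and 0.31, adjusted p = 0.0521 and 0.0522 from limma). Superoxide dismutases and catalase gave 1 higher and 2 lower of 5 (1 and 3 after scaling). The extracellular dismutase *Sod3* rose by 1.36 (scaled 0.95), while catalase, *Cat*, fell by 0.42 (scaled -0.86) and the copper chaperone *Ccs* fell by 0.34 (scaled -0.78). Without Ctrl 2, Ctrl 3 or LKO 2 there were 2 or 3 NADPH suppliers, 1 or 2 thioredoxins and peroxiredoxins and 1 gene of the last list called in either direction. The medians of the 8 lists ran from -0.08 for the dismutases and catalase to 0.66 for the glutathione genes, beside 0.33 for all genes. After scaling they ran from -0.53 to 0.30 for the same lists, beside -0.04 for all genes, and 5 of the 8 were under 0. In iWAT, GM and hypothalamus 0 of the 100, 95 and 98 list genes tested were called by limma, and 13, 9 and 2 had an unadjusted p under 0.05 (13%, 9.47% and 2.04%, beside 15%, 6.83% and 3.72% of all genes tested in those tissues).

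No member was called in the other tissues, where 0% of tested genes were called higher, and 0% in iWAT, 0% in GM and 0.0217% in hypothalamus (3 genes) were called lower by limma. At an unadjusted p under 0.05 there were 0 members in iWAT, 2 in GM and 0 in hypothalamus, and over all genes 1842 of 12288, 743 of 10877 and 515 of 13828. With deposited TPM, median-ratio scaling, ordinary variances and the other alternatives the count of members called was 0 in each of the 3 tissues. The members' median log2 fold change was 0.11 in iWAT, -0.16 in GM and 0.02 in hypothalamus. A p that misses the threshold does not show equal levels, and the intervals below give what the data allow.

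In iWAT the 95% intervals of the log2 fold change lay between -0.63 and 0.59 for the members other than *Hmox1*, whose interval was wide (-1.59 to 0.60). *Hmox1* was at 29.2, 116 and 43.3 FPKM in Ctrl iWAT and at 37.2, 33.6 and 41.5 FPKM in LKO iWAT. Ctrl 2 stood apart, and the log2 fold change of -0.49 (adjusted p = 0.65 from limma) became 0.06 without it. The same library had the most macrophage marker signal, with a sum of 337 FPKM against 126 to 197 FPKM in the other 5, and the most monocyte signal. *Hmox1* divided by that sum was 0.343 in Ctrl 2 and 0.22 to 0.295 in the others, and how much of the level comes from these cells was not tested. *Gclc* was the only member without overlap between the groups, at 7.64, 6.13 and 7.76 FPKM in Ctrl and 8.72, 8.08 and 7.85 FPKM in LKO iWAT (log2 fold change 0.18, adjusted p = 0.469 from limma), where 9.76% of tested genes had all LKO libraries above and 11% all below. The endothelial marker sum did not overlap either (119 to 168 FPKM in Ctrl, 196 to 250 in LKO). Nor did the neutrophil sum (4.61 to 7.52 and 9.77 to 21.9) or the low hepatocyte sum (14.4 to 25.8 and 36.7 to 54). Macrophage, monocyte and adipocyte sums overlapped, and the part of any of these cells was not tested. In LKO 1, *Srxn1*, *Txnrd1* and *G6pdx* were at their highest of the 6 libraries (18.1, 31.3 and 134 FPKM), and without it their log2 fold changes went from 0.11, 0.07 and 0.11 to -0.09, -0.09 and -0.11.

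**Figure D3:**
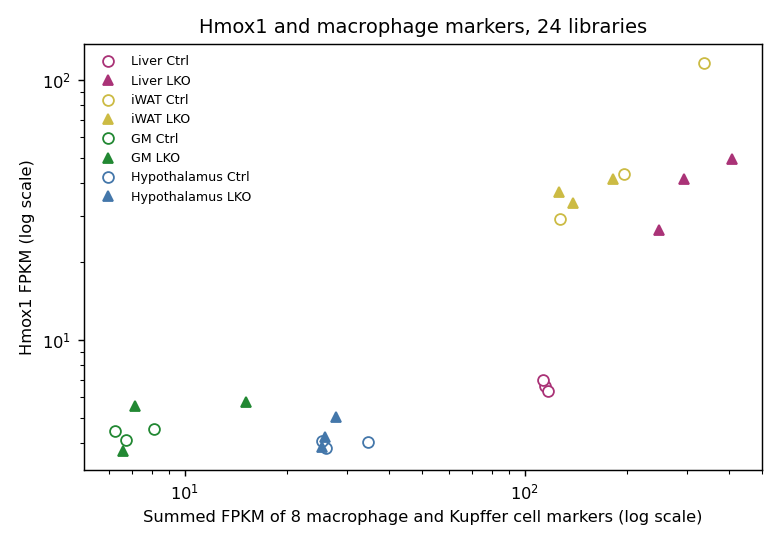
*Hmox1* FPKM against the summed FPKM of 8 macrophage and Kupffer cell markers, both on log axes, in the 24 libraries (open circles Ctrl, filled triangles LKO, colour by tissue). The LKO livers lie above and to the right of the Ctrl livers, and Ctrl 2 of iWAT (116 FPKM at a marker sum of 337 FPKM) lies apart from the other iWAT libraries.

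In GM, 7 members had a log2 fold change under 0. Hepatocyte markers, low in muscle, summed to 250, 19.1 and 190 FPKM in Ctrl and 91.2, 11.3 and 32.5 FPKM in LKO muscle, and their part in these values was not tested. *Txnrd1* was at 26.8, 23.9 and 27.4 FPKM in Ctrl and 23.5, 21.3 and 19.6 FPKM in LKO muscle, with a log2 fold change at -0.27 (interval -0.47 to -0.06, unadjusted p = 0.0188, adjusted p = 0.626 from limma). *Prdx1* was at 125, 110 and 109 FPKM in Ctrl and 107, 97.5 and 98.7 FPKM in LKO muscle, with a log2 fold change of -0.18 (adjusted p = 0.728 from limma). These were the 2 members whose LKO libraries all lay below the Ctrl libraries, as 7.2% of tested genes did, while 4.38% lay above. *Srxn1* was high in LKO 2 alone (18.6 FPKM, the others 8.99 to 11.6), and *G6pdx* was high in LKO 1 (3.66 FPKM, the others 1.46 to 2.59), a library that also had the highest adipocyte (995 FPKM, the others 292 to 850), macrophage (15.2 FPKM) and lymphocyte (24.6 FPKM) marker sums in this tissue. *Srxn1* was at a log2 fold change of 0.19, and -0.09 without LKO 2, and *G6pdx* at 0.01, and -0.27 without LKO 1.

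Hypothalamus showed the smallest differences, with log2 fold changes from -0.06 to 0.10 and 95% intervals that lay between -0.27 and 0.33 for all 10 members. *Hmox1* was at 4.04, 3.85 and 4.07 FPKM in Ctrl and 5.06, 3.87 and 4.21 FPKM in LKO hypothalamus, and *Nqo1* at 4.81, 5.21 and 5.33 FPKM and 5.49, 4.84 and 4.92 FPKM. Both overlapped between the groups. *Gclc* was at 20.6, 20.6 and 18.8 FPKM in Ctrl and 21.4, 21.6 and 20.6 FPKM in LKO hypothalamus, and by the unrounded values its groups did not overlap, as for 4.74% of genes with LKO above and 4.97% below. Its log2 fold change was 0.08 (adjusted p = 0.999 from limma).

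**Figure D4:**
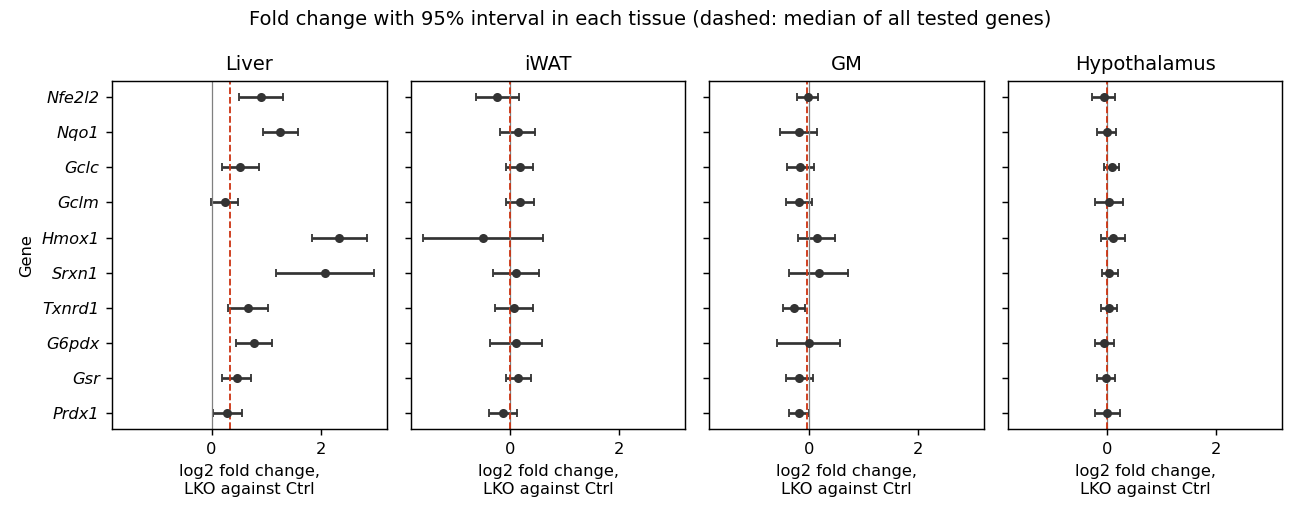
Log2 fold change, LKO against Ctrl, of the 10 members in each tissue, with 95% intervals from limma and n = 3 per group. The dashed line is the median of all tested genes, which is 0.33 in liver and between -0.03 and -0.01 elsewhere, and *Hmox1*, *Srxn1* and *Nqo1* lie farthest to the right in liver.

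Whether the effect of LKO differed between tissues was tested in 1 limma fit of all 24 libraries. For 8 members the F test over the tissues passed on the deposited scale, beside 33.5% of 15794 genes. The liver effect exceeded the mean of the other 3 tissues most for *Hmox1*, by 2.42 on the log2 scale (standard error 0.36), *Srxn1* by 1.97 (0.33), *Nqo1* by 1.28 (0.15) and *Nfe2l2* by 1.01 (0.17). The adjusted p of the F test was 0.000393, 0.00172, 6.07e-05 and 0.00159 for these 4. *Gclm* and *G6pdx* did not pass the F test (adjusted p = 0.124 and 0.078). The difference itself, liver above the mean of the others, passed for 9 members, all but *Gclm*, and so for *G6pdx* (0.75, adjusted p = 0.013), beside 38.5% of genes. Median-ratio scaling was done here over all 24 libraries together and not within a tissue. After it, with 23.8% of genes passing, 3 members did, *Nqo1* (adjusted p = 0.000966), *Hmox1* (0.00102) and *Srxn1* (0.00795), while *Nfe2l2* was at 0.0587. The scaled difference from the other tissues passed for these 3 and for *Nfe2l2* (0.56, adjusted p = 0.0133), beside 15% of genes.

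The tissues differed in how much of each member they held in Ctrl mice, and this is given as a description, since no scaling between tissues is stated. Liver held the most *Gclc* (mean 137 FPKM, SD 24.7, n = 3), *Gclm*, *Gsr*, *Txnrd1* and *Prdx1*. *Gclc* went down from there over hypothalamus (20 FPKM) and iWAT (7.18 FPKM) to GM (5.61 FPKM), a 24.4-fold range of the means, and *Gclm* followed the same order over a 7.93-fold range. *G6pdx* had the widest range, 55.6-fold, with 91.7 FPKM in iWAT, where fat is made with NADPH, 20.1 FPKM in hypothalamus, and 2.17 and 1.65 FPKM in GM and liver, which overlapped. *Hmox1* was highest in iWAT and lowest in hypothalamus (15.7-fold, and 9.11-fold without Ctrl 2 of iWAT), and *Nfe2l2* had the same order over 4.23-fold. *Nqo1* was highest in GM (14.2 FPKM, SD 3.36), and the libraries of the other 3 tissues overlapped in order, with liver the lowest in the mean (2.76 FPKM). The LKO livers, at 7.14 to 8.67 FPKM of *Nqo1*, lay above all Ctrl libraries of iWAT and hypothalamus and below those of GM. *Srxn1* was highest in hypothalamus (42.2 FPKM, SD 0.525), and liver, iWAT and GM overlapped as neighbours in that order. *Txnrd1* varied least, over 1.73-fold, with GM and hypothalamus overlapping. *Gsr* (2.99-fold) and *Prdx1* (5.3-fold) both went from liver to iWAT and on to the other tissues, ending in GM for *Gsr* and in hypothalamus for *Prdx1*.

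**Figure D5:**
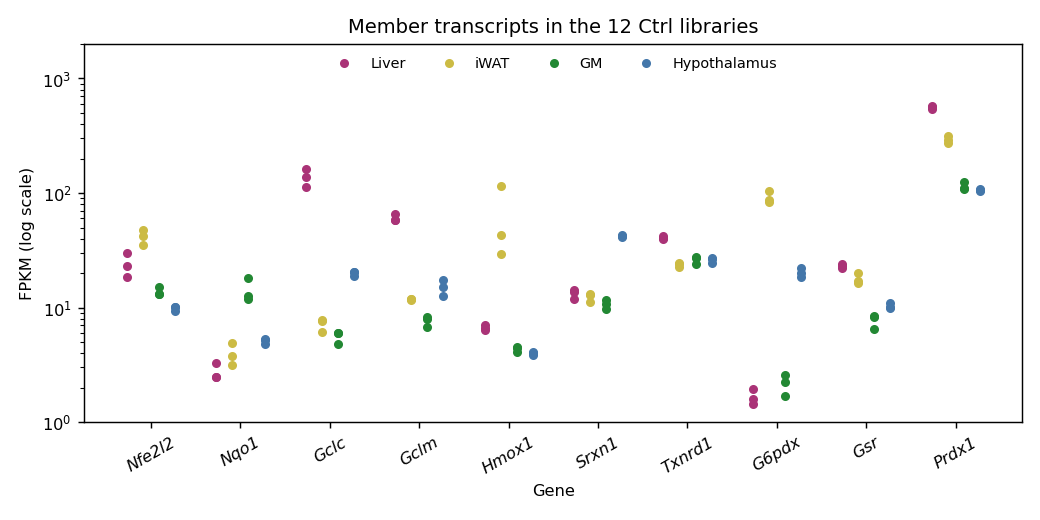
FPKM on a log axis of the 10 members in the 12 Ctrl libraries, each point being 1 library, coloured by tissue. *G6pdx* spans the widest range, from 1.44 FPKM in liver to 105 FPKM in iWAT, and *Txnrd1* the narrowest, from 22.5 to 41.8 FPKM.

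Over the 24 libraries, the genes whose log2(FPKM + 1) followed *Nfe2l2* most closely among 14118 genes were *Anxa4* (Pearson r = 0.967), *Wfdc17* (0.964) and *Gata6* (0.963). For *Nqo1* they were *Tuba8* (0.953), *Tmem64* (0.941) and *Zbtb18* (0.934). The libraries come in groups of 6 from 1 tissue, so these values are a description. In liver *Tuba8* was at 0.927 to 1.61 FPKM in Ctrl and 14.3 to 24.2 FPKM in LKO mice, while in GM it was at 165 to 180 and 167 to 182 FPKM.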

How the data were processed

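The authors deposited, for 24 liver, iWAT, GM and hypothalamus libraries (TruSeq, unstranded, paired-end), FPKM per gene on mm10 and, per library, the coverage (a signal not scaled for depth), FPKM and TPM of each gene. The submitters' processing notes list FastQC 0.11.5, Trimmomatic 0.32, HISAT2 2.0.5, Bowtie2 2.2.6, STAR 2.5.2b and StringTie 1.3.3b, with no role given. Read counts were not used here, so single-gene counting error is unknown. Replicates correlated at 0.9825 to 0.9973 and none were identical.

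Each tissue was fitted with limma 3.58.1 in R 4.3.3 (trended prior) on log2(FPKM + 1), 3 LKO against 3 Ctrl libraries, keeping genes that reached 1 FPKM in 3 or more of 6 libraries. All 10 members passed this filter in each tissue. P-values are two-sided, adjusted by Benjamini-Hochberg over all tested genes. The script was tested on simulated data. Exact permutation tests of 3 against 3 cannot go below 0.1. Python 3.11.15 with pandas 2.3.3 and matplotlib 3.10.9 were used for tables and figures.

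The members and lists were chosen with earlier results of these data known. Named genes were the members, *Crif1*, up to 3 genes per list with the largest called change in liver, and the 3 nearest patterns of *Nfe2l2* and *Nqo1*. *Keap1*, *Gstp1*, *Gstp2*, *Aldh1l1*, *Mthfd1*, *Ikbkg*, *Eid3* and *AV051173* were added after values were seen. The hepatocyte markers *Alb*, *Apoa1* and *Serpina1a* and the overlapping *Mir5098* were named as well, outside these rules. Alternatives were a pseudocount of 0.1, no filter, a mean of at least 5 FPKM, TPM, median-ratio scaling, quantile normalization, ordinary variances, 1 fit of all libraries, a replicate block, a 1.5-fold limit, each library left out and, added after seeing the data, coverage. A planned look at protein sequences is not analysed here.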

Additional observations from a re-analysis of the deposited data

Results flagged for a closer look

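For 8 members the LKO effect differed between the 4 tissues by the F test of the limma fit of all 24 libraries, beside 33.5% of all genes. The adjusted p was 0.00159 for *Nfe2l2*, 6.07e-05 for *Nqo1*, 0.0129 for *Gclc*, 0.000393 for *Hmox1*, 0.00172 for *Srxn1*, 0.00464 for *Txnrd1*, 0.00659 for *Gsr* and 0.0321 for *Prdx1*. On the deposited scale the liver effect was the higher one in all 8, by 0.39 (*Prdx1*) to 2.42 (*Hmox1*) on the log2 scale above the mean of the other tissues. After median-ratio scaling over all 24 libraries together *Nqo1*, *Hmox1* and *Srxn1* passed, with differences of 0.94, 2.02 and 1.53, beside 23.8% of all genes. The scaled differences of *Nfe2l2*, *Gclc*, *Txnrd1*, *Gsr* and *Prdx1* were 0.56, 0.04, 0.27, 0.03 and -0.07, with an adjusted p of the F test of 0.0587, 0.562, 0.14, 0.299 and 0.776, so that the direction of *Prdx1* turned.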

How the results depend on the processing

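The counts in liver moved with scaling, variances and single libraries, and the share of all genes called higher (38.3%) moved with them. In liver the count of members called, 8, became 4 with median-ratio scaling (15.2% of all genes) and 5 with ordinary variances (18.1%), was 10 with the deposited TPM (54.6%) and ranged from 5 to 9 with 1 library left out (14.9% to 60.7%). Quantile normalization also gave 8 (14.3%), with *Prdx1* (adjusted p = 0.0229 from limma) in place of *Gsr* (0.169). The count whose effect differs between tissues, 8, became 3 with median-ratio scaling and 5 with quantile normalization, and ranged from 7 to 9 with 1 library left out (33.5% of all genes, then 23.8%, 20.3% and 22.8% to 45.6%). For this count the scaling and the quantile normalization were done over all 24 libraries together. *Gclm* (-0.19) and *Prdx1* (-0.15) changed direction in liver with median-ratio scaling. The cause was not tested. Calls of single members lost on the same value were *Nfe2l2* (0.90), *Gclc* (0.53), *Srxn1* (2.08) and *Txnrd1* (0.66) with ordinary variances, and calls gained were *Gclm* (0.37) and *Prdx1* (0.41) with TPM and *Prdx1* with quantile normalization (0.45), ordinary variances or 1 fit of all libraries (0.29 in both). Median-ratio scaling lost *Nfe2l2* (0.47), *Gclc* (0.09), *Txnrd1* (0.23) and *Gsr* (0.03), and quantile normalization lost *Gsr* (0.14). Of list genes called in liver in either direction, the 8 regulators became 3 with median-ratio scaling, 4 with quantile normalization, 3 with ordinary variances, and 5 with the replicate block or a mean of 5 FPKM, and went down to 2 without Ctrl 2, Ctrl 3 or LKO 2. With a mean of 5 FPKM, 35.7% of 6949 genes were called higher and 461 genes lower. Ordinary variances left 4 of 8 glutathione genes, 6 of 14 transferases, 3 of 5 thioredoxins and peroxiredoxins (also with a mean of 5 FPKM, and 1 without Ctrl 2), 5 of 8 NADPH suppliers, 2 of 5 haem and iron genes and 4 of 10 quinone and xenobiotic targets. Median-ratio scaling and quantile normalization gave 9 and 8 transferases, 4 and 4 NADPH suppliers (2 without Ctrl 3) and 4 and 6 quinone and xenobiotic targets. Of all 10956 genes, median-ratio scaling called 1663 higher and 1966 lower, and quantile normalization 1570 higher and 1732 lower. Ordinary variances called 1979 higher and 340 lower. The replicate block gave 5 NADPH suppliers and 1 dismutase or catalase gene, as did TPM for the latter. With all libraries in 1 fit 1 thioredoxin gene was called in GM (18 higher and 21 lower of all 10877 genes). In iWAT that fit called 2 NADPH suppliers and 1 quinone or xenobiotic target (397 higher and 248 lower of all 12288 genes). With 1 library left out, 1 transferase was called in iWAT (without LKO 1, with 82 higher and 37 lower over all genes) and 1 thioredoxin gene in GM (without Ctrl 2, 1 and 3) and in hypothalamus (without Ctrl 3, 1 and 7).

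Elsewhere no member was called under any alternative run, and directions near 0 turned. In iWAT, with 1 library left out, *Hmox1* ranged from -0.91 to 0.06, *Srxn1* from -0.09 to 0.25, *Txnrd1* from -0.09 to 0.19 and *G6pdx* from -0.11 to 0.27. In GM, *Nfe2l2* was 0.01 with median-ratio scaling or quantile normalization and -0.05 to 0.05 with 1 library left out, *Srxn1* ranged from -0.09 to 0.40, and *G6pdx* was -0.02 with a pseudocount of 0.1 and -0.27 to 0.19 with 1 left out. In hypothalamus *Nqo1* was 0.01 with TPM and -0.06 to 0.02 with 1 left out, *Gclm* ranged from -0.08 to 0.14, *Txnrd1* from -0.01 to 0.06, *G6pdx* from -0.11 to 0.02 and *Gsr* from -0.04 to 0.02. The labels do not say whether the replicate numbers pair the samples. Correlations of same-numbered deviations ran from -0.13 to 0.35, which does not settle it. With a replicate block 8 members were called in liver (30.9% of all genes higher), 0 in each other tissue, and 9 differed between tissues (32.5% of all genes).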
